A study of Danio rerio with 32 samples.

Results

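The genes described here are 4 genes of the bone morphogenetic protein (BMP) gradient of the zebrafish gastrula, taken by their Ensembl identifiers from a table of 15710 genes. They are bmp2 (ENSDARG00000041430), admp (ENSDARG00000025372), szl (ENSDARG00000099637) and rgmd (ENSDARG00000034013). Polyadenylated RNA of whole zebrafish embryos was sequenced in 32 libraries, with 8 controls (labelled NT) and 8 each from embryos given folic acid, valproic acid or all-trans retinoic acid. Exposure began 3 h after fertilization and ended at 7 h, 4 h in all, and the series design names retinoic acid and valproic acid as teratogens and folic acid as the negative control. All groups, the controls included, were kept in standard water with 0.01% of a solvent that the labels spell DSMO. The labels give no strain, dose or number of embryos per library. Whether replicates came from separate clutches is not stated either, and the p-values therefore cover only library-to-library spread, possibly of technical origin. The numbers in the library titles run up to 48, and each set of 12 numbers holds 2 libraries of every group.

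BMP signals pattern the fish gastrula from belly to back. Ligands of the BMP2, BMP4 and BMP7 type act on serine/threonine kinase receptors, which phosphorylate Smad proteins, and signaling is highest on the ventral side. Chordin from the dorsal organizer binds the ligands, and Tolloid-type proteases cut chordin and set the ligands free. The product of szl, sizzled, is a secreted Frizzled-related protein that inhibits these proteases, and szl is itself a ventral gene that BMP signaling turns on. The gene admp encodes a BMP-like ligand made, unlike the other ligands, on the dorsal side, where BMP signaling holds its transcription down. The gene rgmd belongs to the repulsive guidance molecules, membrane-anchored proteins whose mammalian members act as BMP co-receptors.

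The values are log2 expression values that the authors normalized, and 1 unit stands for a 2-fold change. Levels are not given per length and were therefore compared between groups of libraries, not between genes. All 4 genes were well above the low end of the table, with bmp2 between the 76.8th and 88.2nd percentile of genes in any library, admp between the 81.3rd and 89.3rd, rgmd between the 65.6th and 86.5th and szl between the 43.5th and 79.8th. Library totals cannot be had from these values. As a measure of relative depth, the number of distinct values among the lowest 25% of genes ran from 13 to 53 and was lowest in folic acid replicates 7 and 8. Lists of marker genes for the tissues of the gastrula were measured in controls. The mean level per library was 12.7 to 13.2 over 11 genes listed for the enveloping layer. It was 9.52 to 9.82 over 18 genes listed for the organizer and 9.51 to 10.1 over 11 for ventral and lateral mesoderm.

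In valproic acid 3 of the 4 genes fell, bmp2, szl and rgmd, and admp did not pass the test (limma, Benjamini-Hochberg adjusted p under 0.05 over all 15710 genes). Of all genes, 15.4% fell in this comparison. In retinoic acid rgmd rose and admp fell, where 0.592% of all genes rose and 0.14% fell, and bmp2 and szl did not pass. In folic acid none of the 4 was called by limma. No gene of the 15710 was called there (0%), and 507 had an unadjusted p under 0.05, fewer than the 785.5 that uniform p-values would give. The comparisons with control share the 8 control libraries.

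**Figure D1:**
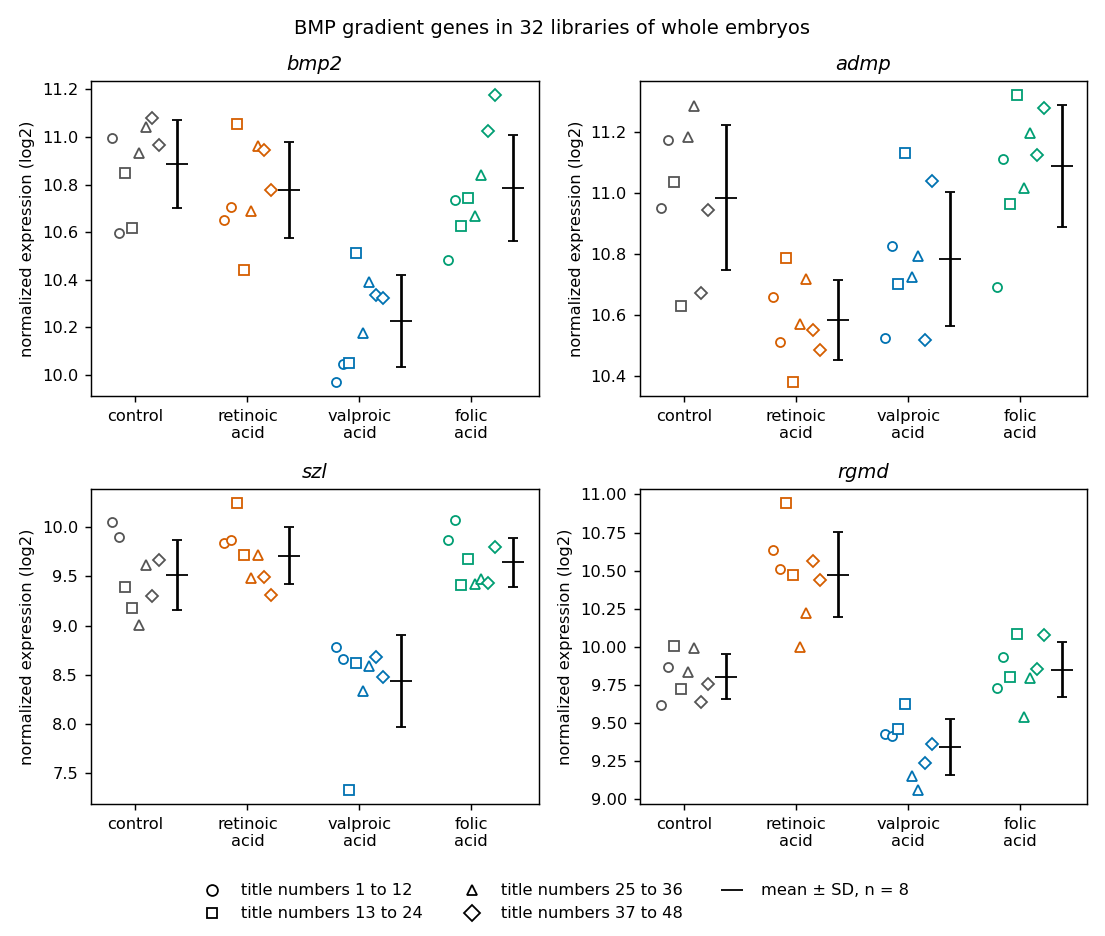
Normalized expression (log2) of bmp2, admp, szl and rgmd in each of the 32 libraries, by treatment group on the horizontal axis. Marker shapes give the title-number set and bars the mean ± SD over 8 libraries. All 8 valproic acid libraries lie below all 8 controls for bmp2 and szl, and 7 of 8 retinoic acid libraries lie above all controls for rgmd.

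The ligand gene bmp2 ran from 10.6 to 11.1 in the 8 control libraries, with a median of 10.9. In valproic acid it ran from 9.97 to 10.5, with a median of 10.3. The highest valproic acid library lay below the lowest control, by 0.0867, and 2.78% of all genes had all 8 valproic acid libraries below all 8 controls. The mean went from 10.88 ± 0.185 (SD, n = 8) to 10.23 ± 0.193, a 1.58-fold fall (log2 difference -0.66, SE 0.10, 95% interval -0.86 to -0.46, limma adjusted p = 5e-06). The 4 title-number sets taken alone gave -0.79, -0.45, -0.70 and -0.69, all lower. In retinoic acid bmp2 ran from 10.4 to 11.1 with a median of 10.7, and in folic acid from 10.5 to 11.2 with a median of 10.7, so both groups overlapped the controls. The log2 difference was -0.11 in retinoic acid (95% interval -0.31 to 0.09, limma adjusted p = 0.97) and -0.10 in folic acid (95% interval -0.30 to 0.10, limma adjusted p = 0.98). In order of their means the groups were control, folic acid, retinoic acid and valproic acid. The first 3 were not separated from each other in these tests. The last step was, since retinoic acid stood above valproic acid by 0.55 (SE 0.10, limma adjusted p = 5.5e-05).

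For the dorsal ligand gene admp the order of the group means was not that of bmp2, and no test compared the 2 genes. Levels of admp ran from 10.6 to 11.3 in controls with a median of 10.99, and from 10.4 to 10.8 in retinoic acid with a median of 10.6. The groups overlapped, with 5 of the 8 retinoic acid libraries below all controls. The mean went from 10.99 ± 0.238 (SD, n = 8) to 10.58 ± 0.132, a 1.32-fold fall (log2 difference -0.40, SE 0.10, 95% interval -0.60 to -0.20, limma adjusted p = 0.038). All 4 title-number sets were lower, at -0.48, -0.25, -0.59 and -0.29. The call was near the threshold. It was lost in 12 of 32 fits that left out 1 library, with adjusted p from 0.012 to 0.12, while the difference stayed between -0.45 and -0.36. All 12 left out 1 of the 8 control or 8 retinoic acid libraries. Most fits that left out a library of these 2 groups thus lost the call. It was also lost without the set numbered 25 to 36 (-0.34, adjusted p = 0.39) and without the intensity trend of the test (adjusted p = 0.07).

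Those 12 libraries were control replicates 1, 2, 3, 5, 6 and 8 and retinoic acid replicates 1, 2, 4, 5, 7 and 8. With folic acid in place of control as the reference, admp was lower in retinoic acid by 0.51 on the log2 scale (log2 difference -0.51, SE 0.10, limma adjusted p = 0.0026), where 0.204% of all genes fell. In valproic acid admp ran from 10.5 to 11.1 with a median of 10.8, and 2 of 8 libraries lay below all controls. The log2 difference from control was -0.20 (SE 0.10, 95% interval -0.40 to -0.0017, limma adjusted p = 0.12). Against folic acid it was -0.31 (SE 0.10, limma adjusted p = 0.018), and with folic acid as the reference all 4 genes were lower in valproic acid, where 14.4% of all genes fell. Folic acid libraries ran from 10.7 to 11.3 for admp with a median of 11.1, and differed from control by 0.10 (95% interval -0.10 to 0.30, limma adjusted p = 0.98). In order of the means the groups were folic acid, control, valproic acid and retinoic acid, and no step between neighbours passed the test. Retinoic acid against valproic acid gave -0.20 (95% interval -0.40 to 0.0011, limma adjusted p = 0.13).

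The largest of the 4 differences in valproic acid was that of szl, the Tolloid inhibitor. Control libraries ran from 9.01 to 10.1 with a median of 9.50, and valproic acid libraries from 7.34 to 8.78 with a median of 8.61. No valproic acid library reached the lowest control, which lay 0.228 above the highest of them. The mean went from 9.51 ± 0.359 (SD, n = 8) to 8.44 ± 0.464, a 2.11-fold fall (log2 difference -1.08, SE 0.16, 95% interval -1.41 to -0.74, limma adjusted p = 6.6e-06). The 4 title-number sets gave -1.26, -1.31, -0.85 and -0.90. The library at 7.34, valproic acid replicate 3, stood apart from the others of its group, and without it the difference was -0.92 and the gene was still called.

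In retinoic acid szl ran from 9.31 to 10.2 with a median of 9.72, and in folic acid from 9.41 to 10.1 with a median of 9.57. Both groups overlapped the controls, with differences of 0.19 (95% interval -0.14 to 0.53, limma adjusted p = 0.97) and 0.13 (95% interval -0.21 to 0.46, limma adjusted p = 0.98). In retinoic acid the sets gave -0.12, 0.69, 0.29 and -0.08, so 2 were higher and 2 lower. In order of the means the groups were retinoic acid, folic acid, control and valproic acid, and the step that passed the test was the one from control to valproic acid. Retinoic acid against valproic acid gave 1.27 (SE 0.16, limma adjusted p = 3.4e-07), a 2.41-fold difference.

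The co-receptor family gene rgmd moved in opposite directions with the 2 teratogens. Control libraries ran from 9.62 to 10.002 with a median of 9.80. Retinoic acid libraries ran from 9.997 to 10.9 with a median of 10.5, and 7 of 8 lay above all controls. The remaining library, at 9.997, was just under the highest control, at 10.002. The mean went from 9.80 ± 0.146 (SD, n = 8) to 10.47 ± 0.280, a 1.59-fold rise (log2 difference 0.67, SE 0.10, 95% interval 0.46 to 0.88, limma adjusted p = 0.00011). In valproic acid rgmd ran from 9.06 to 9.62 with a median of 9.39, and 7 of 8 libraries lay below all controls. The mean was 9.34 ± 0.182, a 1.38-fold fall (log2 difference -0.46, SE 0.10, 95% interval -0.67 to -0.25, limma adjusted p = 0.00073). This call was lost when only the sets numbered 1 to 24 were used (-0.32, adjusted p = 0.092). Folic acid libraries ran from 9.54 to 10.1 with a median of 9.83, a difference of 0.05 (95% interval -0.16 to 0.25, limma adjusted p = 0.98). In order of the means the groups were retinoic acid, folic acid, control and valproic acid. Folic acid and control were not separated, retinoic acid stood 0.62 above folic acid (SE 0.10, limma adjusted p = 0.00025), where 0.662% of all genes rose, and valproic acid stood below control.

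Set against each other, retinoic acid was higher than valproic acid for bmp2, szl and rgmd, 3 of the 4 genes, where 14.5% of all genes were higher. The difference was largest for szl (1.27) and next for rgmd (1.13, SE 0.10, limma adjusted p = 2.8e-10), a 2.19-fold difference. The labels give no doses, so the sizes of these responses are side by side and not at matched doses.

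**Figure D2:**
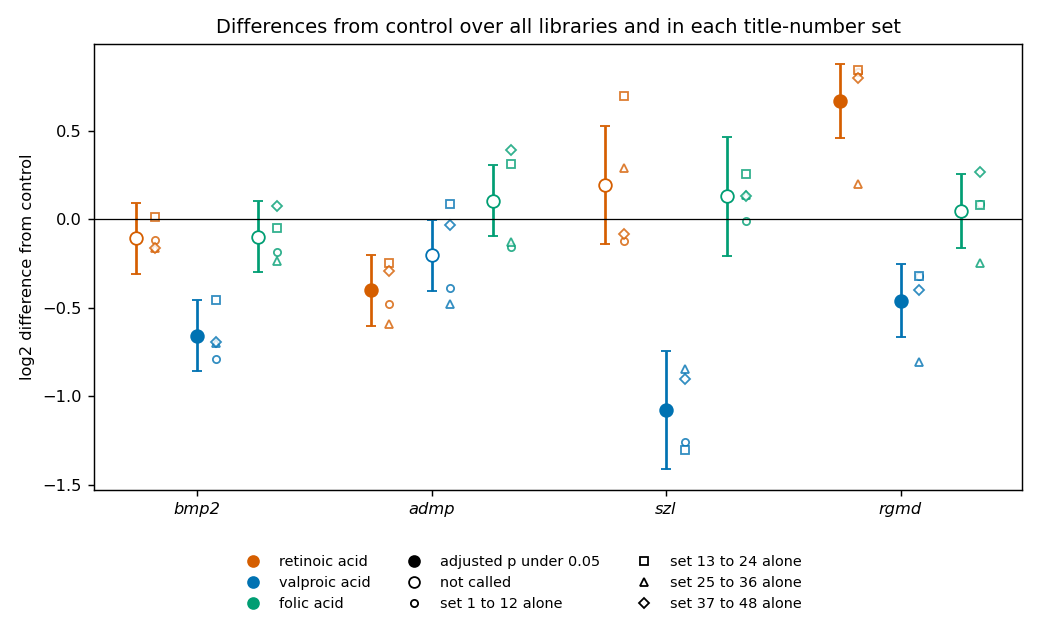
Log2 differences from control (vertical axis) for the 4 genes (horizontal axis) in retinoic acid, valproic acid and folic acid, with 95% intervals from limma; filled circles have an adjusted p under 0.05, and small open markers give each title-number set alone, 2 libraries against 2. The intervals of all 4 genes in valproic acid and of admp in retinoic acid lie below 0, that of admp in valproic acid ending at -0.0017 with an adjusted p of 0.12, and the interval of rgmd in retinoic acid lies above 0, and the set numbered 25 to 36 gave the smallest rise of rgmd in retinoic acid (0.20) and its largest fall in valproic acid (-0.80).

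The title-number sets also differed among themselves. In the set numbered 25 to 36, rgmd was lower than in the libraries numbered 1 to 24 by 0.26 on the log2 scale, with group in the fit (log2 difference -0.26, SE 0.08, limma adjusted p = 0.015). It was the 1 gene of the 4 called there, and 11.2% of all genes were lower in that set. The call of rgmd was lost without retinoic acid replicate 5 (adjusted p = 0.058). Without valproic acid replicate 3, szl was called as well (-0.29, adjusted p = 0.03). By group, the mean of rgmd in that set and in the set numbered 1 to 12 was 9.91 and 9.74 in controls, 10.1 and 10.6 in retinoic acid, 9.11 and 9.42 in valproic acid and 9.66 and 9.83 in folic acid. Controls were thus the 1 group in which the set numbered 25 to 36 was higher. The rise of rgmd with retinoic acid was 0.83, 0.84, 0.20 and 0.80 in the 4 sets, and its fall with valproic acid was -0.32, -0.32, -0.80 and -0.40. A test of whether the difference from control itself varied over the sets gave adjusted p = 0.63 for rgmd in retinoic acid (limma F test, unadjusted p = 0.025) and adjusted p = 0.54 in valproic acid. None of the 12 such tests passed for the 4 genes, with adjusted p from 0.54 to 0.99. Of all genes 0% passed in retinoic acid, 1.98% in valproic acid and 0.00637% in folic acid. In retinoic acid 1176 genes had an unadjusted p under 0.05, where uniform p-values would give 785.5.

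In the set numbered 37 to 48, bmp2 was higher than in the libraries numbered 1 to 24 by 0.26 (SE 0.07, limma adjusted p = 0.019), where 4.44% of all genes were higher. Its 2 control libraries of that set were at 10.97 and 11.08, its folic acid libraries at 11.03 and 11.17. The last 2, folic acid replicates 7 and 8, were the libraries of lowest relative depth, and the part of depth in this difference was not tested; without folic acid replicate 8 the adjusted p was 0.054. The other genes were not called in that set, with differences of -0.01 for admp, -0.14 for szl and -0.09 for rgmd. For szl, the 2 control libraries numbered 1 and 2 were at 10.1 and 9.90 and all other controls at 9.67 or lower. With all groups in the fit, szl was lower in the set numbered 13 to 24 than in the set numbered 1 to 12 by 0.43 (log2 difference -0.43, SE 0.14, limma adjusted p = 0.14), a difference that did not pass, and none of the 4 genes did in this comparison (1.6% of all genes did).

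The 2 libraries that share a treatment and a title-number set form 16 pairs, and within them the differences of the 4 genes were compared. In 14 of 16 pairs the library with more admp also had more rgmd, and in 14 of 16 the library with more bmp2 also had more szl. Across the 16 within-pair differences the correlation, taken through 0, was 0.82 for admp and rgmd, 0.74 for bmp2 and szl, and between 0.56 and 0.59 for the other 4 combinations. With only the group means removed, the correlations over the 32 libraries were lower. They were 0.46 for admp and rgmd, 0.14 for bmp2 and szl, and between 0.16 and 0.50 for the other 4. Among the 11782 genes in the upper 75% by mean, 0.738% correlated with admp at least as strongly as rgmd did, and 0.942% with bmp2 at least as strongly as szl did. For the other 4 combinations this share was 6.83% to 14.4%. The median gene correlated with admp at 0.0082. The same 2 genes went apart in retinoic acid, with rgmd higher than in controls and admp lower, the latter by a call near the threshold. In valproic acid both were below control, at -0.20 for admp, not called, and -0.46 for rgmd. In folic acid both were slightly above, at 0.10 and 0.05, and neither was called. The within-pair differences share their libraries and their normalization. In 3 of 16 pairs the library with more rgmd was also the one of greater relative depth, with a correlation of -0.50 between the difference in rgmd and that in depth; for admp it was -0.50, for szl -0.39 and for bmp2 -0.16. The part of depth in the shared movement was not tested.

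**Figure D3:**
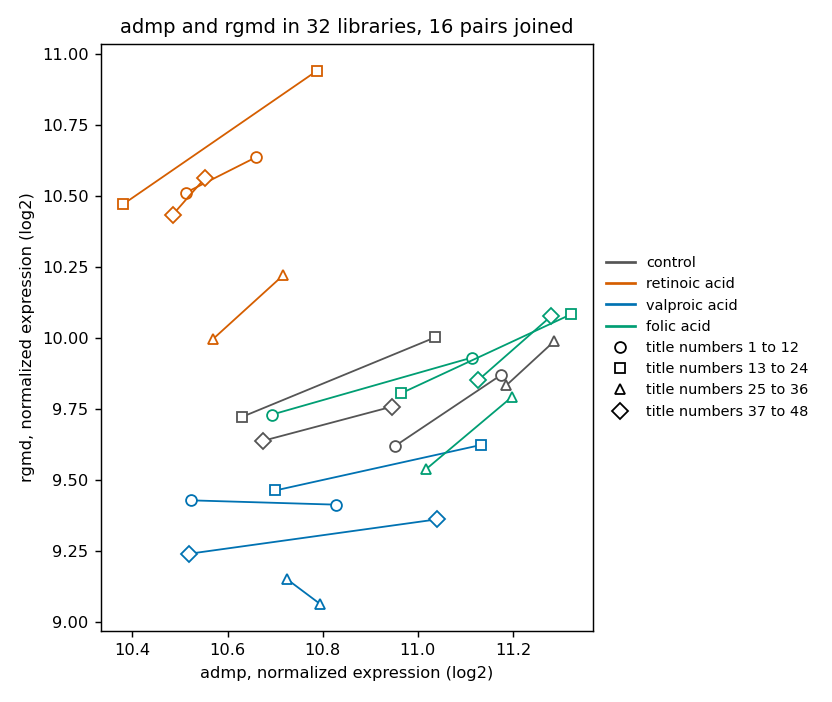
Normalized log2 expression of admp (horizontal axis) and rgmd (vertical axis) in the 32 libraries, colored by treatment, with lines joining the 2 libraries of the same treatment and title-number set. Lines slope upward in 14 of 16 pairs, and 7 of 8 retinoic acid libraries lie above all controls for rgmd while 5 of 8 lie below all controls for admp.

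The genes whose levels followed each member most closely over the 32 libraries were found by Pearson correlation among genes in the upper 75% by mean. Points share their libraries, and the correlations include the differences between treatments. For rgmd they were GRHL2, a transcription factor of epithelia (r = 0.89), FGF8, a growth factor (0.89), ube2e2, a ubiquitin-conjugating enzyme (0.89), MEIS1, a Hox cofactor (0.88), and CYP26A1, the enzyme that degrades retinoic acid (0.88). After the group means were removed, these correlations fell to between 0.49 and 0.63. For admp they were RASL11B, a small GTPase gene (0.87), HES3, a repressor of the Hairy and Enhancer of split family (0.77), FOXD3 (0.75) and FOXB1 (0.74), forkhead transcription factors, and tdgf1, a Nodal co-receptor (0.74). With the group means removed they ranged from 0.56 to 0.73. For bmp2 they were ATXN7L2 under ENSDARG00000055300 (0.90) and ENSDARG00000056268 (0.89), si:ch73-221f6.4 (0.88), CDK9, a kinase of transcription elongation (0.87), and OTOP1, a proton channel (0.87). With the group means removed they ranged from 0.66 to 0.80. For szl they were si:dkey-16l2.20 (0.84), HEY1, a Notch effector (0.83), GATA2 (0.83), ZCCHC7 (0.83) and the deacetylase SIRT1 (0.83). Removing the group means left only 0.32 to 0.48, and the correlation of GATA2 with szl over the 24 libraries other than valproic acid was 0.25.

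Of the wider BMP pathway, a list of 79 gene names led to 65 measured genes, the 4 above included. The list was chosen with earlier results of these data known, so its shares are not independent of them. Of the other 61 genes, 24 fell in valproic acid and 1 rose, which is 39.3% and 1.64%, beside 15.4% and 15.9% of all genes. Their median log2 difference was -0.25, against -0.01 over all genes. In retinoic acid 1 of the 61 fell (1.64%) and none rose, beside 0.14% and 0.592% of all genes, with a median of 0.01. In folic acid limma called none, as it called no gene at all.

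**Figure D4:**
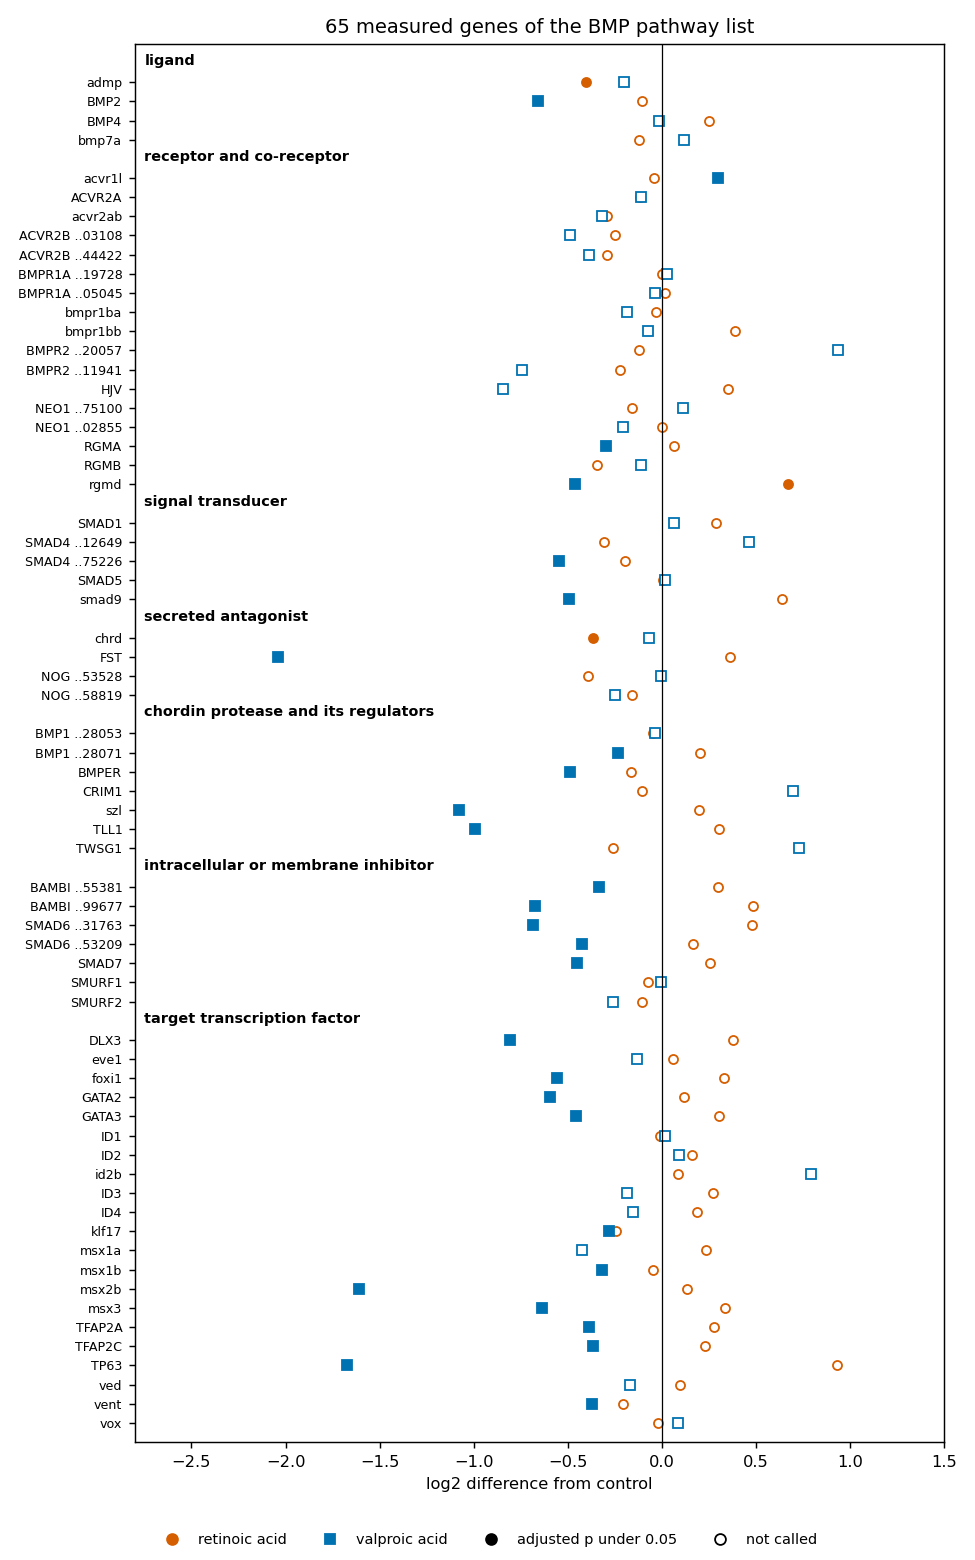
Log2 differences from control (horizontal axis) of the 65 measured BMP pathway genes, ordered by role, for retinoic acid (circles) and valproic acid (squares); filled markers have a limma adjusted p under 0.05. In valproic acid 27 of the 65 genes fell and 1 rose, and in retinoic acid 2 fell and 1 rose. Genes that share a name carry the last 5 digits of their identifier.

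Among the ligands, bmp2 was the 1 of 4 measured genes that fell in valproic acid (25%), beside 15.4% of all genes. That share rests on bmp2 alone, which was chosen with earlier results of these data known. The partner ligand gene bmp7a was at 11.45 in controls and 11.56 in valproic acid (log2 difference 0.12, limma adjusted p = 0.46), and BMP4 at 10.21 and 10.20 (-0.01, adjusted p = 0.93). In retinoic acid bmp7a differed by -0.12 (adjusted p = 0.97) and BMP4 by 0.25 (adjusted p = 0.48). The name BMP2 also belongs to a second identifier, which was not among the 15710 genes measured.

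Among 17 receptors and co-receptors, rgmd included, 2 fell in valproic acid and 1 rose. This is 11.8% and 5.88%, both below the 15.4% and 15.9% of all genes. RGMA, another repulsive guidance molecule, fell with rgmd, by 0.30 on the log2 scale (SE 0.06, limma adjusted p = 0.00038), while RGMB differed by -0.11 (adjusted p = 0.36). The type I receptor gene acvr1l rose by 0.30 (SE 0.12, adjusted p = 0.046). In retinoic acid rgmd was the 1 gene of this role that was called (5.88%, beside 0.592% of all genes that rose). That share rests on rgmd alone, which was chosen with earlier results of these data known. RGMA was at 0.07 there (limma adjusted p = 0.97) and RGMB at -0.34 (adjusted p = 0.051). Of the 5 Smad genes that carry the signal, SMAD4 (ENSDARG00000075226) fell in valproic acid by 0.55 (SE 0.15, adjusted p = 0.0065) and smad9 by 0.49 (SE 0.17, adjusted p = 0.025), while SMAD5 differed by 0.02 (adjusted p = 0.89) and SMAD1 by 0.06 (adjusted p = 0.83). The other measured SMAD4 gene, ENSDARG00000012649, was not called there.

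The dorsal antagonist gene chrd, which encodes chordin, fell in retinoic acid, from 13.84 ± 0.133 (SD, n = 8) to 13.47 ± 0.225, by 0.37 (SE 0.09, limma adjusted p = 0.039), as admp did, and differed by -0.07 in valproic acid (adjusted p = 0.61). The retinoic acid call of chrd was near the threshold, and how it depended on single libraries or settings was not tested. Of the other genes on an organizer list of 18, otx2a was the 1 that fell in retinoic acid. With chrd this is 11.1% of the list, beside 0.14% of all genes. The list also holds OTX2 and SIX3 genes, and where its genes were expressed was not measured in these whole embryos. The median of the list was -0.20, against -0.01 over all genes. The mean level of this list ran from 9.52 to 9.82 in control libraries, 9.35 to 9.75 in retinoic acid, 9.33 to 9.62 in valproic acid and 9.52 to 9.92 in folic acid. In whole embryos, fewer cells of a type and less RNA per cell cannot be told apart, and the part of organizer size in the fall of admp was not tested. In valproic acid the activin and BMP antagonist FST, follistatin, went from 9.04 ± 0.778 to 6.99 ± 1.75 (log2 difference -2.04, SE 0.49, limma adjusted p = 0.0016). FST was the 1 of 4 antagonists that fell there (25%), beside 15.4% of all genes.

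Of the chordin proteases and their regulators, 7 were measured, szl included. In valproic acid 4 of the 7 fell and none rose, beside 15.4% of all genes that fell. The 4 were 3 others and szl, which was chosen with earlier results of these data known. The Tolloid-like protease gene TLL1 fell by 0.99 on the log2 scale, from 9.55 ± 0.530 to 8.55 ± 0.781 (SE 0.30, limma adjusted p = 0.01). BMPER, a chordin-like modulator of BMP ligands, fell by 0.49 (SE 0.13, adjusted p = 0.0028), and the protease gene BMP1 (ENSDARG00000028071) by 0.24 (SE 0.08, adjusted p = 0.015). In retinoic acid none of the 7 was called, with TLL1 at 0.30 (adjusted p = 0.97).

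The intracellular and membrane inhibitors, many of them turned on by BMP signaling in feedback, fell in valproic acid in 5 of 7 cases, beside 15.4% of all genes. SMAD6 fell by 0.42 (ENSDARG00000053209, SE 0.08, limma adjusted p = 6e-05) and by 0.68 (ENSDARG00000031763, SE 0.17, adjusted p = 0.0023). SMAD7 fell by 0.45 (SE 0.11, adjusted p = 0.0026) and the pseudoreceptor gene BAMBI by 0.33 (ENSDARG00000055381, SE 0.09, adjusted p = 0.0032). The ubiquitin ligase genes SMURF1 and SMURF2, at -0.0042 and -0.26, did not pass (adjusted p = 0.98 and 0.13). In retinoic acid the 5 SMAD6, SMAD7 and BAMBI genes had positive differences, from 0.17 to 0.48, and none passed (adjusted p from 0.15 to 0.90). SMURF1 and SMURF2 were lower there, at -0.08 and -0.11, and did not pass either (limma adjusted p = 0.97 for both).

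Of 21 transcription factor genes known as BMP targets or ventral ectoderm genes, 12 fell with valproic acid, with no rise among them, beside 15.4% of all genes that fell and 15.9% that rose. GATA2 fell by 0.60 (SE 0.08, limma adjusted p = 1.2e-06), foxi1 by 0.56 (SE 0.09, adjusted p = 3.1e-05), the epidermal regulator TP63 by 1.67, from 9.53 ± 0.657 to 7.854 ± 0.935 (SE 0.31, adjusted p = 9.5e-05), and msx3 by 0.64 (SE 0.12, adjusted p = 0.00014). Not all ventral genes fell: vox was at 0.09 (adjusted p = 0.60), ved at -0.17 (adjusted p = 0.23), eve1 at -0.14 (adjusted p = 0.38) and ID1 at 0.02 (adjusted p = 0.92), while vent fell by 0.37 (SE 0.12, adjusted p = 0.02). In retinoic acid none of the 21 was called, and the largest difference was that of TP63, at 0.93 (adjusted p = 0.30).

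Markers of other tissues also moved in valproic acid, and GATA3 is on both the BMP target and the yolk syncytial layer list. Of the organizer list 4 of 18 fell, with a median of -0.18 over the list. They were foxa3, FOXA2, otx2a and SIX3 (ENSDARG00000054879), the last by 1.24 on the log2 scale. The other measured SIX3 gene, ENSDARG00000058008, was not called there. Of the ventral and lateral mesoderm list 4 of 11 fell, of the enveloping layer list 3 of 11, of the yolk syncytial layer list 5 of 8 and of the germ cell list none of 8, and no marker of these lists rose. Of all genes 15.4% fell and 15.9% rose. The mean level of the mesoderm list ran from 9.51 to 10.1 in control libraries and from 9.02 to 9.70 in valproic acid. For the enveloping layer it ran from 12.7 to 13.2 and from 12.5 to 12.9, for the yolk syncytial layer from 11.2 to 11.8 and from 10.6 to 11.1, and for germ cells from 7.87 to 8.91 and from 7.67 to 8.60. The part of these tissues in the falls of bmp2, szl and rgmd was not tested.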

How the data were processed

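RNA was extracted with quiazol and made into NEBNext Ultra II Directional libraries, per the labels. The authors deposited normalized log2 values for 15710 genes. The submitters' processing notes name HTSeq 0.11.0, limma and GRCz11; aligner and normalization settings are not stated in the sources at hand. Rank by rank, the top values of the libraries lay within 0.03 of each other, so a shift shared by most genes could not be detected. Groups follow the treatment in the labels, with replicates numbered in accession order.

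Tests used limma (version 3.58.1, R version 4.3.3), fitting group means to all 32 libraries with an intensity trend; p-values were adjusted over all genes by Benjamini-Hochberg, with 0.05 as the threshold. Requiring a mean log2 of at least 1 removed 0 genes. Set differences came from a fit with group and set, and interactions from a fit that added their product. The fit was tested on simulated data with 200 changed genes.

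The members and lists were chosen with earlier results of these data known. Of 65 measured list genes, 40 matched by name, 23 after removal of a paralog letter and 2 by an alias, and reads of near-identical paralogs may be split. Named are the 4 members, up to 4 called genes per role with the smallest adjusted p, the 5 genes most correlated with each member, and bmp7a, BMP4 and chrd. RGMB, SMAD1, the SMAD4 gene that was not called, SMAD5, SMURF1, SMURF2, vox, ved, eve1, vent, ID1, GATA3 and the organizer genes other than chrd were added after their values were seen. Alternatives changed the trend, centring, block, pair means, filter, groups, sets, reference and each library.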

Additional observations from a re-analysis of the deposited data

Results flagged for a closer look

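In valproic acid replicate 3, szl was at 7.34, while the other 7 libraries of that group lay between 8.34 and 8.78. The gap to the next library was 0.696 of the range of the group. Gaps were looked for in 16 groups, 4 genes in 4 treatments, by a rule that chance meets in about 1 of 20 groups. How often chance gives a gap as large as this one was not computed. Without this library szl differed from control by -0.92 and was still called.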

How the results depend on the processing

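With the title-number sets as a replicate block, 199 genes were called in retinoic acid in place of 115, and no call of bmp2, admp, szl or rgmd changed. The correlation of deviations between same-numbered sets of 2 groups ran from -0.12 to 0.59, with a median of 0.38, and 20 of 24 were over 0.1. Libraries of the same set thus mostly deviated together across groups, and the main tests leave the sets out of the fit. What the numbers stand for is not in the labels. With the mean of each pair of libraries 36 genes were called in retinoic acid, and with the sets numbered 1 to 24 alone 23. Those sets alone gave 2508 calls in valproic acid in place of 4919, and 2174 between retinoic and valproic acid in place of 4718; they hold fewer libraries.

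The fall of admp in retinoic acid was not called without the intensity trend (-0.40, adjusted p = 0.07), with pair means (-0.40, adjusted p = 0.14), with the 2 groups alone (-0.40, adjusted p = 0.051), with the sets numbered 1 to 24 (-0.36, adjusted p = 0.66) or, chosen after seeing the data, without the set numbered 25 to 36 (-0.34, adjusted p = 0.39); the cause was not tested. Leaving out 1 library gave -0.45 to -0.36. The fall of rgmd in valproic acid was not called in the sets numbered 1 to 24 (-0.32, adjusted p = 0.092). With folic acid as the reference, also chosen after seeing the data, admp was called lower in valproic acid (-0.31, adjusted p = 0.018).

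In single sets, 2 libraries against 2, some differences from control lay more than 1 SD of single libraries from the difference over all libraries. In the 4 sets, in order of their numbers, these were 1, 4, 5 and 2 differences, beside 11, 8, 7 and 10 that lay closer. How many would lie that far off from library spread alone was not tested. In retinoic acid szl was at 0.69 in the set numbered 13 to 24 and rgmd at 0.20 in the set numbered 25 to 36. In valproic acid bmp2 was at -0.45 and admp at 0.084 in the set numbered 13 to 24, and admp at -0.48 and rgmd at -0.80 in the set numbered 25 to 36. In folic acid admp was at -0.16, 0.31, -0.13 and 0.39 in the 4 sets, and rgmd at -0.25 and 0.27 in the last 2.

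For the set differences, leaving out 1 library gave -0.29 to -0.15 for szl and -0.31 to -0.21 for rgmd in the set numbered 25 to 36. In the set numbered 37 to 48 it gave 0.23 to 0.29 for bmp2 and -0.057 to 0.034 for admp, whose sign changed in 8 fits. The files give no counts, so the depth behind each value is unknown.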

Other observations

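The libraries numbered 25 to 36 differed from those numbered 1 to 24 in the BMP pathway list as well, with 15 of 65 genes lower and 8 higher (11.2% and 11.1% of all genes), and a median of 0.03. Among the lower genes were DLX3, at -0.84 (SE 0.16, limma adjusted p = 0.00033), TP63, at -0.95 (SE 0.21, adjusted p = 0.0014), msx1a, at -0.76 (SE 0.13, adjusted p = 6.3e-05), and FST, at -1.68 (SE 0.31, adjusted p = 2e-04), and among the higher ones vent, at 0.34 (SE 0.08, adjusted p = 0.002), vox, at 0.30 (SE 0.07, adjusted p = 0.0027), and bmp7a, at 0.27 (SE 0.07, adjusted p = 0.0069). The labels do not say what the title numbers stand for, and these genes were chosen after their values were seen.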
